A study of Homo sapiens with 10 samples.

Results

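The 7 human genes that encode the JUN and FOS proteins (JUN, JUNB, JUND, FOS, FOSB, FOSL1 and FOSL2), the core subunits of the transcription factor AP-1, were read across 10 RNA-seq libraries of MIA PaCa-2 cells. They were taken by name from the symbol column of the deposited table, which held all 7 among 16734 genes. MIA PaCa-2 is an established human pancreatic ductal adenocarcinoma line, so the data describe 1 line in culture. The HPC group has 5 libraries, from cells exposed to hydroxyprogesterone caproate, a synthetic progestin, at 10 µM during 24 h. The DMSO group has 5 libraries, from cells given the matching volume of that solvent over the same 24 h. All cells were grown in serum-containing DMEM, and the comparison of the groups asks how the progestin changed the transcripts of the line.

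AP-1 is a dimer of basic leucine zipper (bZIP) proteins. JUN proteins pair with each other or with a FOS protein, whereas FOS proteins depend on a JUN partner to bind DNA, most tightly at the TPA response element, a short palindrome. JUN, JUNB, FOS and FOSB are immediate early genes, which growth factors, stress and MAP kinase signalling switch on quickly and whose short-lived mRNAs usually fall again. JUND is expressed more steadily. FOSL1 and FOSL2, which encode FRA-1 and FRA-2, respond later and lack the strong activation domain of FOS. FOSL1 is known for its role downstream of RAS signalling in carcinoma cells, including pancreatic ones.

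All 7 members had more transcript in HPC than in DMSO, with every HPC value above every DMSO value, which held for 38.5% of the 9150 tested genes. At an adjusted p below 0.05, 42.9% of tested genes were called higher. FOS rose 18-fold, JUNB 7.81-fold, JUN 4.37-fold, FOSL1 3.07-fold, JUND 3.03-fold and FOSL2 1.38-fold on the log2(FPKM + 0.1) scale. In reads, a different scale, FOSB rose 11.8-fold and FOS 23.9-fold. RNA was measured at 1 time, 24 h, so the course of the rise was not observed, and no protein was measured. FPKM is fragments per kilobase of gene relative to the size of the library, a share of the sequenced RNA, so a change in total RNA per cell and a change in 1 gene cannot be told apart.

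The libraries held between 65857553 and 82223615 reads in genes, recovered from the steps between FPKM values. Across tested genes, log2 values correlated at r of 0.989 or more between any pair within a group and of 0.863 or less between the groups. Mitochondrially encoded genes made 22.6% ± 0.704 (SD, n = 5) of the summed FPKM in DMSO and 14.8% ± 0.717 (SD, n = 5) in HPC. Scaling to the remaining genes moved the median log2 fold change of all tested genes from -0.01 to -0.18 and the calls from 3922 higher and 4099 lower to 2957 higher and 5015 lower. The members' log2 fold changes under that scaling were 4.03 for FOS, 2.80 for JUNB, 1.96 for JUN, 1.45 for FOSL1, 1.43 for JUND and 0.30 for FOSL2. Of the epithelial carcinoma markers, KRT8 (51.8 FPKM in DMSO, 57.7 in HPC) and KRT18 (114 and 150 FPKM) were high, while EPCAM and CDH1 were at or near 0 in both groups. KRT7 was low (0.226 and 0.0352 FPKM), KRT19 went from 24 to 10.1 FPKM and the mesenchymal filament gene VIM from 695 to 333. Among the leukocyte, fibroblast, acinar and islet markers in the table, CD14 was the highest, with a mean of 0.487 FPKM in DMSO, and PTPRC, DCN and GCG were at 0 in every DMSO library. Of 3 endothelial markers, CDH5 had 1.42 FPKM in DMSO and 0.0124 in HPC, while PECAM1 and VWF were near 0. The part of these marker changes in the members' rise was not tested.

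The length behind a gene's FPKM matters for this family. JUN (chr1:58780788-58784327, minus strand), JUNB (chr19:12791496-12793315, plus strand) and JUND (chr19:18279760-18281622, minus strand) have 1 merged exon each in GENCODE 29 on GRCh38. FOS (chr14:75278774-75282230, plus) and FOSB (chr19:45467995-45475179, plus) have 3 merged exons, FOSL1 (chr11:65892049-65900573, minus) has 4 and FOSL2 (chr2:28392448-28417312, plus) has 7. The deposited values had been divided by a length close to the exon lengths summed over all annotated transcripts of a gene. Of 15182 genes, 89.2% had a divisor within 5% of that sum and 8.09% within 5% of the merged exon length, in which each base counts once. For JUN, with 1 transcript, both lengths are 3540 bases. For FOSB, with 13 transcripts, the divisor was 33056 bases against 5553 merged bases, a ratio of 5.95. The ratio was 3.19 for FOSL1, 3.07 for FOS, 1.93 for FOSL2, 1.27 for JUND and 1.01 for JUNB. FPKM therefore understated FOSB, FOSL1 and FOS beside the JUN genes, and levels of different members are compared below as merged-exon RPKM, that is recovered reads per kilobase of merged exon, scaled to library size as FPKM is. A fold change of a gene between the groups does not depend on its divisor, apart from the pseudocount.

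**Figure D1:**
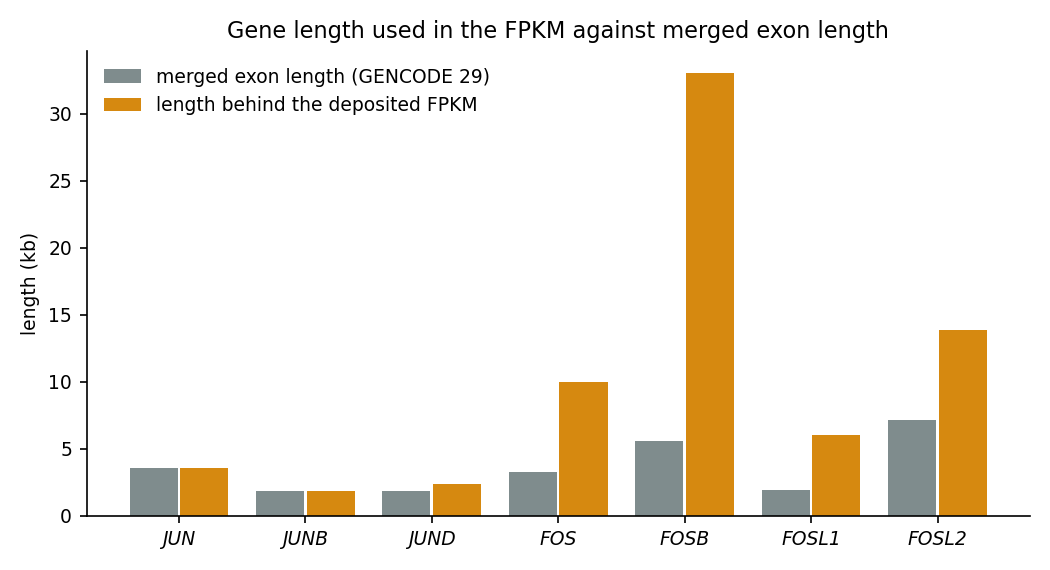
Length of each JUN and FOS gene in kb, as merged exons in GENCODE 29 (grey bars) and as the length behind the deposited FPKM (orange bars). The bars are equal for JUN at 3540 bases and stand furthest apart for FOSB, at 5553 against 33056 bases.

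Promoter windows from 250 bases before to 50 after the annotated start site were in the RefSeq table (GRCh38.p14) for 6 members, all but FOSL1. The windows of JUN and FOSL2 lie inside the GENCODE 29 spans given above, which begin further upstream. Positions below therefore hold for the RefSeq start alone. The 5 below are shown because they carry an element of the cyclic AMP response type, the kind bound by ATF, CREB and JUN dimers. Capitals mark matches, on either strand, to TGACGTCA (the consensus element, CRE), to its core TGACGT, to the JUN variant TGACATCA, to the AP-1 element TGAGTCA and to the TATA box TATAAA. JUNB, the sixth member with a window, held none of the first 4. The windows are JUN at chr1:58783998-58784297 (minus strand), JUND at chr19:18281573-18281872 (minus), FOS at chr14:75278578-75278877 (plus), FOSB at chr19:45467746-45468045 (plus) and FOSL2 at chr2:28392608-28392907 (plus).
JUN: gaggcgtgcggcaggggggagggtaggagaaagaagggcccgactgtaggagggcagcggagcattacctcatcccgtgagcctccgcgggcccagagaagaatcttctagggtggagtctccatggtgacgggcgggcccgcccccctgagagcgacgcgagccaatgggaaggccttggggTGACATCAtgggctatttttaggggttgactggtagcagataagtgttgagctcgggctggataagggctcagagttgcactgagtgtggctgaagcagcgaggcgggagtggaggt
JUND: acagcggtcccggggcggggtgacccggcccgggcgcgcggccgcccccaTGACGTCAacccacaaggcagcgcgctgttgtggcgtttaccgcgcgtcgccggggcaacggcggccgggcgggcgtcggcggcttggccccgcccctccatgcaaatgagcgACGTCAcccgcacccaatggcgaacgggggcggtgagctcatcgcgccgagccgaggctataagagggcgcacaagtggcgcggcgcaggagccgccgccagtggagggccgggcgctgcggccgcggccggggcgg
FOS: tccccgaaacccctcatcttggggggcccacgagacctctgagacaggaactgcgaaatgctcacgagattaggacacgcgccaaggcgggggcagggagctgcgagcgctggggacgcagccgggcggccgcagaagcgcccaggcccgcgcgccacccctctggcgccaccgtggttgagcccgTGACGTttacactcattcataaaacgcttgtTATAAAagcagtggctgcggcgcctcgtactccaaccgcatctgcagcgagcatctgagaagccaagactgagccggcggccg
FOSB: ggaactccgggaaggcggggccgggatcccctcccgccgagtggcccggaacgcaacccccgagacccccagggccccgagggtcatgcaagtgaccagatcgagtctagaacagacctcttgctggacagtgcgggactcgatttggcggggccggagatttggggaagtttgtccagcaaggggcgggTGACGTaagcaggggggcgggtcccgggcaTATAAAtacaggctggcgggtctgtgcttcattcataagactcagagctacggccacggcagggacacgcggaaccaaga
FOSL2: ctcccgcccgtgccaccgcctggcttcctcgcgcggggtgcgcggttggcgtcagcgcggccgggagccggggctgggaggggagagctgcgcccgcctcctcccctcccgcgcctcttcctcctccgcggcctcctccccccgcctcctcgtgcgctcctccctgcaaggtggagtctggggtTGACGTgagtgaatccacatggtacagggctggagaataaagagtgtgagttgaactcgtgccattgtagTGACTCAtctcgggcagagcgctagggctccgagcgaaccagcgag
Counting the start site as 0, JUN had TGACATCA at -67, a match that 2.61% of 35116 promoter windows of this length held. JUND had the full TGACGTCA at -200, a match in 1.85% of windows, and a further core at -87. The core alone began at -64 in FOS, at -60 in FOSB and at -66 in FOSL2, and 7.98% of windows held it, those with the full element included. TATAAA lay at -33 in FOS, at -30 in FOSB and at -31 in JUNB, against 11.5% of windows. FOSL2 alone of the 6 held the AP-1 element itself, as TGACTCA on the other strand of TGAGTCA, at 4, and 4.95% of windows did. None of the 6 windows held TGATGCAA, found in 0.866% of all windows, or a CArG box, found in 1.29%. Sites more than 250 bases before the start site lay outside the windows and were not read, so these genes may hold such elements there. These are matches of letters, and no binding was measured.

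Among the JUN genes, JUN, which encodes c-Jun, the target of JNK phosphorylation, had 19.4, 19.8, 20.4, 19.1 and 20 FPKM in DMSO libraries 1 to 5. In HPC it had 93.6, 90, 87.9, 77.2 and 85.4 FPKM. The lowest HPC library lay far above the highest DMSO library, and the DMSO libraries lay close together. The log2 fold change was 2.13 ± 0.043 (SE), a 4.37-fold rise with a 95% interval of 4.1 to 4.66 and an adjusted p of 6.44e-14 by limma.

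JUNB encodes a JUN protein with weaker transactivation that can oppose c-Jun at some promoters. Its FPKM was 15.6, 13.1, 10.1, 12.3 and 10.7 in DMSO and 98.6, 93.7, 88.2, 104 and 96.4 in HPC. The groups did not overlap, although JUNB was the most uneven JUN gene in DMSO, with a coefficient of variation of 17.5% against 2.57% for JUN and 3.26% for JUND. Counting noise at its 1405 to 2117 reads would give 2.44%. JUNB rose by 2.97 ± 0.107 (SE) on the log2 scale, or 7.81-fold (6.61 to 9.23), with a limma adjusted p of 9.22e-10. Of its exon bases, 259 overlap HOOK2 on the opposite strand, and whether reads were counted by strand is not given in the sources used here. HOOK2 itself had 0.475 FPKM in DMSO and 0.197 in HPC. Its merged-exon level is not given here, so these values cannot be set beside those of JUNB.

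JUND encodes the JUN protein most often linked to slow growth. It had 39.8, 39.5, 38.2, 37.1 and 37.3 FPKM in DMSO and 116, 116, 120, 111 and 119 in HPC. Its libraries were the least spread of the family in HPC, with a coefficient of variation of 3.01%. The rise was 1.60 ± 0.028 (SE) on the log2 scale, 3.03-fold (2.9 to 3.16), with a limma adjusted p of 1.76e-14.

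Among the FOS genes, FOS, the prototype immediate early gene encoding c-Fos, was scarce in DMSO with 0.334, 0.365, 0.275, 0.272 and 0.21 FPKM, from 247, 266, 225, 194 and 150 reads. In HPC it had 7.87, 7.39, 5.94, 6.67 and 6.69 FPKM, from 5407, 5030, 4409, 4383 and 4386 reads. The lowest HPC library, with 4383 FOS reads, held many times the 266 of the highest DMSO library. The limma log2 fold change was 4.17 ± 0.105 (SE), 18-fold (15.4 to 21.1), with an adjusted p of 1.06e-12. That value is held down by the pseudocount of 0.1 FPKM, and with a pseudocount of 1 it was 2.61. From the reads, by limma voom, it was 4.58 ± 0.204 (SE), 23.9-fold (17.6 to 32.6), with an adjusted p of 1.19e-10. FOS passed the filter of 1 FPKM through its HPC libraries alone, which by itself requires a difference, whereas the filter of 10 reads used with voom was met in all 10 libraries.

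FOSB encodes FosB and, by splicing, the stable truncated ΔFosB. With 0.0537, 0.0446, 0.0482, 0.0274 and 0.0456 FPKM in DMSO and 0.552, 0.541, 0.451, 0.527 and 0.5 in HPC, it stayed under the filter of 1 FPKM in every library. These values came from 132, 108, 131, 65 and 108 reads in DMSO and from 1259, 1222, 1112, 1149 and 1089 reads in HPC, so the gene was covered by reads in every library and its FPKM is lowered by the long divisor. Voom on the reads gave a log2 fold change of 3.56 ± 0.174 (SE), 11.8-fold (9.2 to 15.2), with an adjusted p of 8.5e-14. On the log2(FPKM + 0.1) scale with no filter, the same data gave 2.09, and per merged exon length 3.14. The table has 1 value per gene and does not separate the 2 splice forms.

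FOSL1, encoding FRA-1, already had 5.77, 5.56, 5.48, 5.63 and 5.39 FPKM in DMSO and reached 17.6, 18.7, 16.5, 17 and 16.8 in HPC. The groups were well apart and evenly spread. Its log2 fold change was 1.62 ± 0.035 (SE), 3.07-fold, with a limma adjusted p of 8.94e-14.

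FOSL2, encoding FRA-2, changed least. It had 4.61, 4.7, 5.46, 5.21 and 5.19 FPKM in DMSO and 6.75, 7.32, 6.83, 6.79 and 7.14 in HPC, so the groups did not overlap but lay close, with 5.46 FPKM the highest in DMSO and 6.75 the lowest in HPC. The rise was 0.46 ± 0.047 (SE) on the log2 scale, 1.38-fold (1.29 to 1.48), with a limma adjusted p of 5.41e-07.

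**Figure D2:**
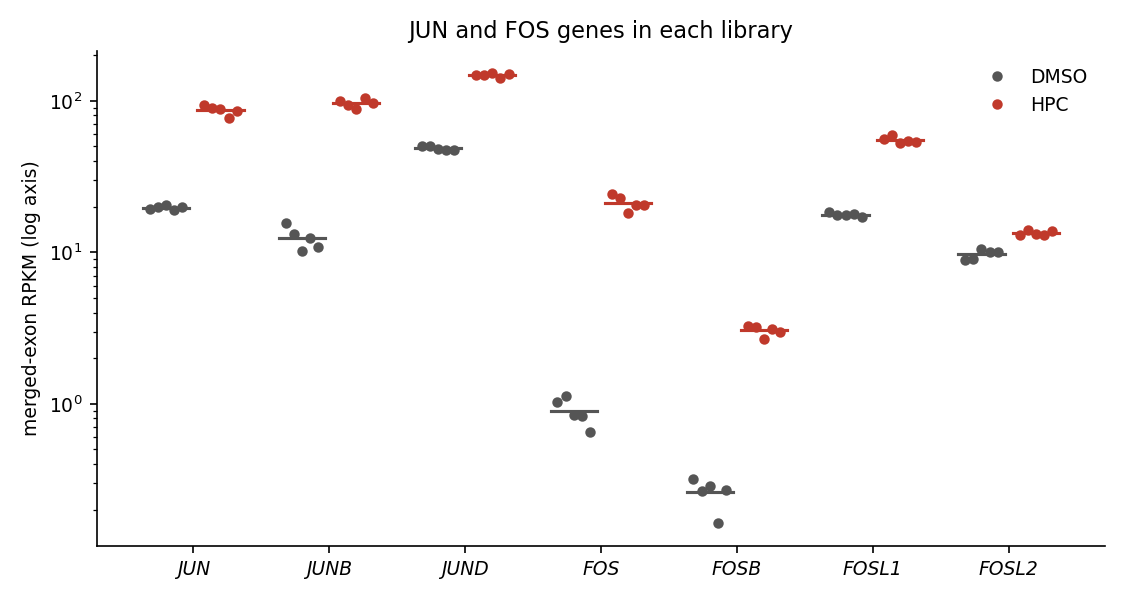
Merged-exon RPKM (log axis) of each JUN and FOS gene in the 5 DMSO (grey) and 5 HPC (red) libraries. Points are libraries in the order of their numbers and lines are group means. The groups do not overlap for any member, and the gap is widest for FOS (means of 0.895 and 21.3) and narrowest for FOSL2 (9.72 and 13.5).

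Most genes of this line were called changed, so a call alone says little about a family. The 6 tested members were all called higher, against the 42.9% of all tested genes given above. A rise of at least 2-fold was called for 7.54% of tested genes, and for 5 of the 6 tested members, the exception being FOSL2. In the voom fit of 13583 genes, 37.5% were called higher and 9.7% at least 2-fold higher. There, all 7 members were called higher and 6 at least 2-fold. By log2 fold change among 9150 tested genes, FOS had rank 18, JUNB 62, JUN 156, FOSL1 267, JUND 276 and FOSL2 1987. FOS was among the 9150 through its HPC libraries alone, so its rank and its 2-fold call there were partly fixed by the filter. It met the filter of the voom fit in every library.

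**Figure D3:**
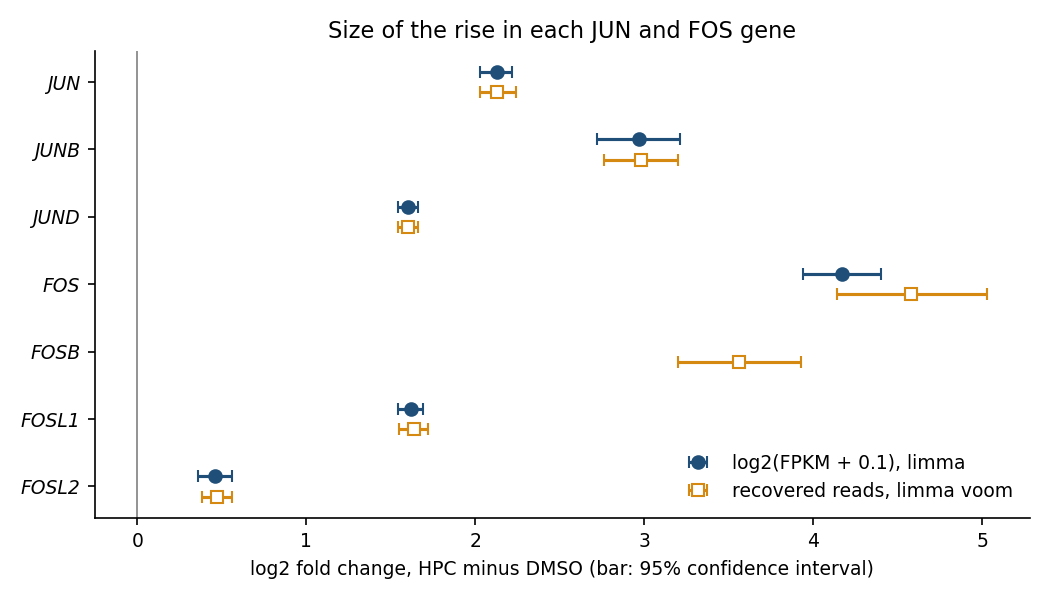
Log2 fold change (HPC minus DMSO) of each JUN and FOS gene with its 95% confidence interval, from limma on log2(FPKM + 0.1) (filled circles) and from limma voom on recovered reads (open squares). FOSB has a value from reads only. The estimates nearly coincide except for FOS, at 4.17 and 4.58.

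The members responded by different amounts. The ratio of 2 members within a library does not depend on the scaling between libraries, and the 15 pairs of tested members were compared between the groups by an exact two-sided permutation test with Benjamini-Hochberg adjustment over the pairs. For 14 pairs the ratio differed, each with complete separation of the groups, a p of 0.00794, the smallest that 5 against 5 libraries allow, and an adjusted p of 0.0085. FOS gained 2.55 on the log2 scale over FOSL1 (95% interval 2.30 to 2.80) and 3.71 over FOSL2 (3.33 to 4.09). The pseudocount of 0.1 FPKM holds these 2 gains down. On the reads they were 2.95 (2.60 to 3.29) and 4.11 (3.64 to 4.59). JUNB gained 0.84 over JUN (interval of the JUN to JUNB ratio -1.18 to -0.50) and 1.37 over JUND (1.10 to 1.63). JUN in turn gained 0.53 over JUND (0.42 to 0.64).

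JUND and FOSL1 were the exception, with a difference of -0.02 (95% interval -0.13 to 0.09, exact permutation p = 0.667, adjusted p = 0.667). A gap between their responses of more than 0.13 on the log2 scale lies outside that interval, but the test does not show that they respond alike. With quantile normalization the difference was -0.15 with an adjusted p of 0.00794 by the same exact test. FOS gained 1.21 over JUNB (interval of the JUNB to FOS ratio -1.45 to -0.97), and this pair turned to 0.26 in favour of JUNB with a pseudocount of 1 FPKM, which exceeds every FOS value in DMSO. On the reads the JUNB to FOS ratio fell by 1.61 on the log2 scale (-1.89 to -1.33). With reads the pairs number 21, including FOSB. FOS gained 1.01 over FOSB (0.48 to 1.55) and FOSB gained 0.60 over JUNB (JUNB to FOSB ratio -1.11 to -0.09), both with an adjusted p of 0.00833 by the exact permutation test.

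In DMSO, JUND was the most abundant member, with a merged-exon RPKM of 48.7 ± 1.59 (SD, n = 5). JUN followed at 19.8 ± 0.509 and FOSL1 at 17.7 ± 0.461, then JUNB at 12.4 ± 2.17, FOSL2 at 9.72 ± 0.704, FOS at 0.895 ± 0.184 and FOSB at 0.261 ± 0.0587. Neighbours in this order were separate in their library values except JUNB (10.2 to 15.6) and FOSL2 (8.9 to 10.5), which overlapped.

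In HPC, JUND still led at 148 ± 4.44 and was followed by JUNB at 96.7 ± 5.87, JUN at 86.8 ± 6.15, FOSL1 at 55.2 ± 2.72, FOS at 21.3 ± 2.27, FOSL2 at 13.5 ± 0.481 and FOSB at 3.06 ± 0.238. By mean, JUNB had passed FOSL1 and JUN, and FOS had passed FOSL2. The values of JUNB (88.7 to 105) and JUN (77.2 to 93.6) overlapped, and the other neighbours did not.

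The summed level of the 3 JUN genes went from 80.8 ± 3.32 (SD, n = 5) to 331 ± 6.49, and that of the 4 FOS genes from 28.6 ± 0.468 to 92.9 ± 5.08, on the same scale. JUN genes per FOS genes went from 2.83 ± 0.134 in DMSO to 3.57 ± 0.17 in HPC, so JUN transcripts outnumbered FOS transcripts in all 10 libraries. On deposited FPKM the ratio read 6.45 and 9.46, since the divisors of the FOS genes are the longer ones.

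Within the JUN genes, JUND made 60.2% ± 0.832 (SD, n = 5) in DMSO and 44.6% ± 1.21 in HPC, while JUNB went from 15.3% ± 2.1 to 29.2% ± 1.98. JUN held 24.5% ± 1.3 and 26.2% ± 1.45. Within the FOS genes, FOSL1 was the largest in both groups, at 62% ± 1.64 and 59.4% ± 0.966, whereas on deposited FPKM its share went up, from 50.9% to 54.6%. FOS went from 3.13% ± 0.658 to 22.8% ± 1.43, FOSB from 0.914% ± 0.208 to 3.29% ± 0.142, and FOSL2 from 34% ± 2.22 to 14.5% ± 0.711. These shares describe RNA and say nothing of which dimers formed.

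**Figure D4:**
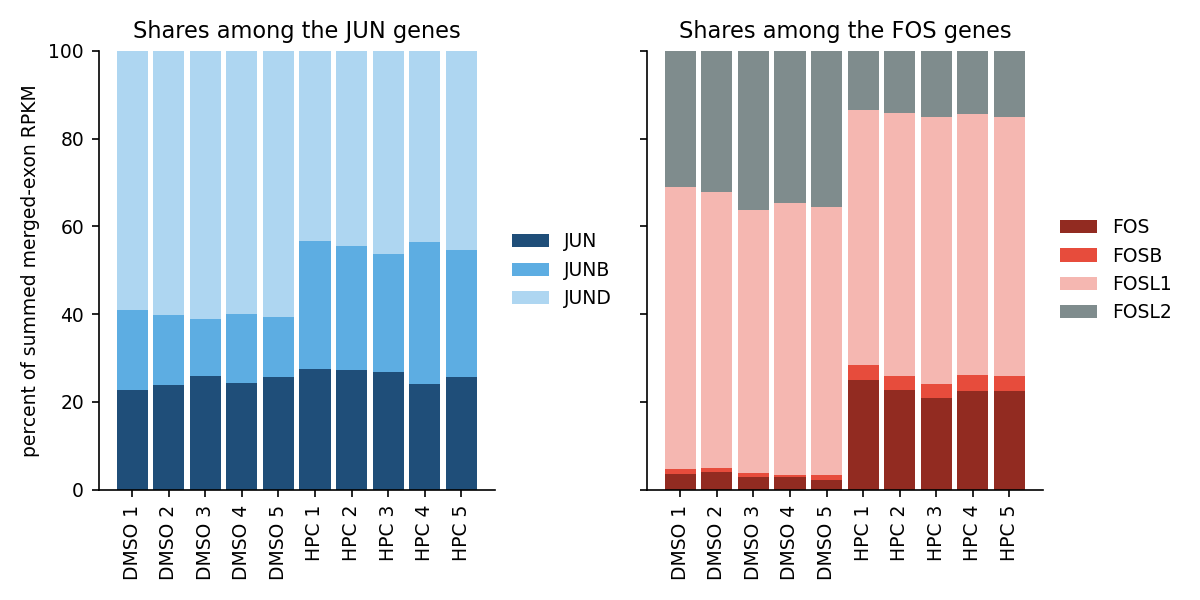
Share of each gene in the summed merged-exon RPKM of the 3 JUN genes (left) and the 4 FOS genes (right), as percent, 1 bar per library. JUNB takes 12.9% to 18.3% of the JUN genes in DMSO and 27% to 32.4% in HPC, and FOS takes 2.3% to 3.98% and 21% to 25% of the FOS genes.

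Libraries did not order the members alike. JUN was lowest among the HPC libraries in library 4, at 77.2 FPKM, where JUNB was highest, at 104. FOS, FOSB, JUNB and FOSL1 were each lowest among the HPC libraries in library 3, where JUND was highest. In DMSO, library 5 had the lowest FOS and library 4 the lowest FOSB, with 150 and 65 reads. The coefficient of variation of FOS was 20.6% in DMSO against 6.8% from counting, and that of FOSB 22.5% against 9.59%.

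Genes with the profiles closest to the members were sought among all tested genes, by the root mean square difference over 10 libraries of the log2 values taken relative to DMSO. For JUN they were TMEM158 at 0.066 and ATF4 at 0.068. JUNB was closest to MT2A at 0.132 and SLC7A5 at 0.137, and JUND to EZR at 0.021 and TXNRD1 at 0.036. FOS was closest to SAT1 at 0.147 and SLC3A2 at 0.180, FOSL1 to PVR at 0.039 and EZR at 0.051, and FOSL2 to ADAT1 at 0.039 and IRF2BP2 at 0.042. With 2 groups, this likeness is mostly a like-sized fold change on the log2(FPKM + 0.1) scale, as in TMEM158 (2.10, JUN 2.13) and SAT1 (4.12, FOS 4.17). For FOS, at 0.291 FPKM in DMSO, the pseudocount holds that value down, and limma voom on the reads gave 4.58. SAT1 and SLC3A2, at 7.7 and 2.58 FPKM in DMSO, stand further above the pseudocount. The closeness of FOS to these 2 genes therefore depends on the scale.

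Related genes were read against the background, in which 42.9% of tested genes were called higher and 44.8% lower. The lists were chosen with earlier results of these data known, so their counts are a description and no test of a list. The other bZIP genes whose proteins can pair with JUN or FOS proteins were also higher. Of 14 listed, 13 were in the table and 8 were tested, and all 8 rose, with a median log2 fold change of 1.07 against -0.01 for all tested genes. ATF3, a stress-induced repressor, had 0.346 ± 0.0672 FPKM in DMSO and 20.1 ± 1.25 in HPC (SD, n = 5), a 45.6-fold rise. Like FOS, it passed the filter through HPC alone, and its fold is held down by the pseudocount. Its log2 fold change was 5.51 on FPKM and 5.87 by voom on the reads. The small MAF genes MAFF (5.75-fold) and MAFG (2.7-fold) rose, and ATF4, the effector of the integrated stress response, rose 4.47-fold from 31.4 to 140 FPKM. By reads, 12 listed genes were tested and 12 were higher, against 37.5% of all genes tested by reads.

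Changes were small in the JNK cascade, whose kinases phosphorylate c-Jun. Of 11 tested genes 7 rose, 3 fell and 1 did not pass the test, none of them by 2-fold, with a median of 0.14. Of the 7, MAPK8 (0.941 FPKM in DMSO, 1.1 in HPC) and MAP3K13 (0.936 and 1.12) passed the filter through HPC alone and were named after their values were seen. With scaling to the non-mitochondrial sum, 3 were higher and 5 lower, so the balance of calls depends on the scaling. MAP2K7 rose 1.5-fold, MAPK8IP1 1.31-fold and MAP2K4 1.27-fold, and MAP3K4 fell by 0.79 (log2). In the voom fit, 37.5% of the genes tested there were called higher and 43.7% lower, and the counts were 7 higher and 6 lower of 14 JNK cascade genes. Of 15 tested genes of the ERK and p38 cascades, 5 rose and 10 fell, with a median of -0.37. On the same FPKM scale, 42.9% of all tested genes were called higher and 44.8% lower. BRAF rose 1.86-fold, while the kinase gene RPS6KA1 fell by 1.21, MAPK11 by 1.10 and MAP2K5 by 0.78 (log2). These 3 passed the filter through DMSO, as did MAP3K4. By reads, 5 of 19 ERK and p38 cascade genes were higher and 12 lower, against 37.5% and 43.7% of all genes tested by reads. MAP2K6, under the filter of 1 FPKM and named after its values were seen, had 0.22 FPKM in DMSO and 0.000943 in HPC.

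The phosphatases that switch these kinases off rose together. Of 10 MAP kinase phosphatase genes 6 were tested and 6 rose, with a median of 2.23, where 42.9% of all tested genes were called higher. DUSP6, specific for ERK, had 0.958 ± 0.0869 FPKM in DMSO and 12.3 ± 0.835 in HPC, 11.7-fold. DUSP2 rose 6.62-fold, DUSP5 6.16-fold and DUSP1 3.57-fold. DUSP6 and DUSP2 passed the filter through HPC. By reads, 8 of 9 were higher and 1 was lower, against 37.5% and 43.7% of all genes tested by reads. The lower gene, named after its values were seen, is DUSP9, at 0.878 ± 0.0685 FPKM in DMSO and 0.381 ± 0.0633 in HPC.

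Of 12 tested regulators of JUN and FOS transcription, 8 rose, 3 fell and 1 did not pass, with a median of 0.29. Most tested genes were called in one direction or the other (42.9% higher, 44.8% lower), so calls both ways do not set the list apart. MEF2D, a factor at the JUN promoter, rose 2.17-fold and MEF2A 1.92-fold. STAT3 fell by 1.27 (log2), from 23 ± 1.63 to 9.48 ± 0.212 FPKM. The SRF coactivator gene MRTFB fell by 1.63 and passed the filter through DMSO.

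Of 6 tested genes for JUN and FOS protein turnover, 3 rose and 3 fell, with a median of -0.06, a split near that of all tested genes (42.9% higher, 44.8% lower). The kinase gene GSK3A rose 1.46-fold and the ubiquitin ligase gene ITCH 1.31-fold, and DDB1 and CUL4A fell by 0.43 and 0.30 (log2). Of 6 genes whose proteins bind AU-rich elements in mRNA, 3 rose and 3 fell, with a median of 0.28, again near that split. The 3 that rose encode decay factors of 1 family, ZFP36 (5-fold, passing the filter through HPC), ZFP36L1 (1.78-fold) and ZFP36L2 (1.65-fold). HNRNPD fell by 0.42.

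Of 24 listed genes described as AP-1 targets, 22 were in the table and 15 were tested, of which 9 rose, 4 fell and 2 did not pass, with a median of 0.96. Of all tested genes, 42.9% were called higher and 44.8% lower. HBEGF, an EGF receptor ligand, rose 20.3-fold from 1.04 ± 0.185 to 22.9 ± 1.91 FPKM. HMOX1, encoding heme oxygenase, rose 14.9-fold, the metallothionein gene MT2A 7.14-fold and the chemokine gene CXCL8 7.08-fold. CCND1 fell by 2.06, CD44 by 1.18, PLAU by 0.94 and GSTP1 by 0.24 (log2). These 4 were named after their values were seen. Many of these genes are also targets of other factors, and no AP-1 binding was measured.

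Other immediate early genes moved in the direction of FOS and JUN. Of 19 listed, all in the table, 15 were tested and 15 rose, with a median of 1.84, and by reads 18 of 18 were higher. The share called higher among all tested genes was 42.9%, and 37.5% by reads. EGR1, a zinc finger factor, had 15.1 ± 1.46 FPKM in DMSO and 161 ± 5.44 in HPC, 10.6-fold. ARC rose 12.3-fold, EGR4 8.65-fold and CCN2, a matricellular protein gene, 7.03-fold. The pseudocount of 0.1 FPKM holds these 3 folds down, so their order beside EGR1 depends on the scale. By voom on the reads of the genes tested on FPKM, the log2 fold changes were 4.37 for ARC, 4.31 for EGR4 and 3.34 for CCN2. That of EGR1 was 3.42. ARC, EGR4 and CCN2 are among the 4 of 15 tested genes that had a DMSO mean below 1 FPKM and passed the filter through HPC.

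**Figure D5:**
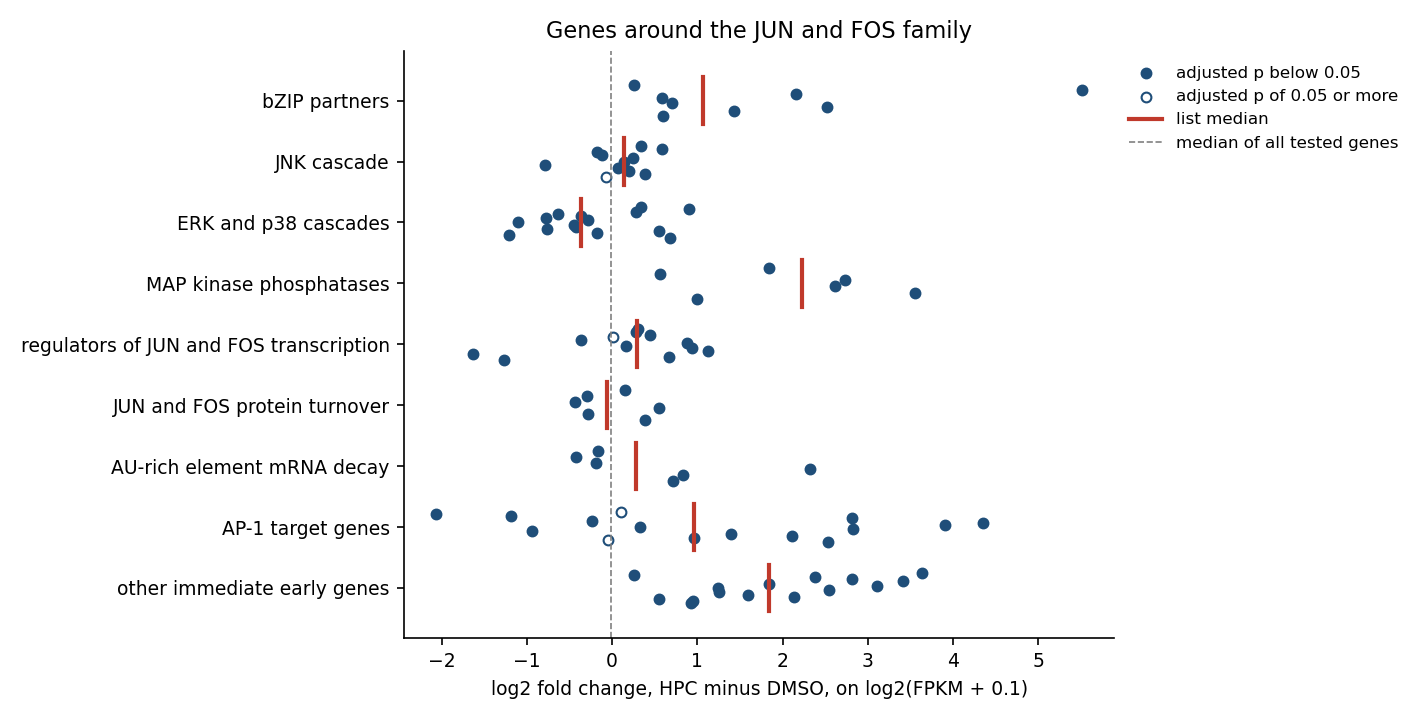
Log2 fold change (HPC minus DMSO, on log2(FPKM + 0.1)) of each tested gene in 9 lists around the JUN and FOS family. Filled points passed an adjusted p of 0.05 and open points did not, red bars are list medians and the dashed line is the median of all tested genes at -0.01. The medians of the MAP kinase phosphatases (2.23) and the other immediate early genes (1.84) lie furthest to the right.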

How the data were processed

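Poly(A) RNA from 5 DMSO and 5 HPC libraries was sequenced, and the authors deposited 1 table of FPKM for 16734 genes. Without stating roles, the submitters' processing notes list STAR 2.7.7a, fastp 0.23.2, edgeR and GRCh38.p13. How reads were counted, whether by strand, and with which annotation is not given in the sources used here. Replicates are called biological in the labels, with no culture day or batch, and p-values therefore cover only the spread among libraries.

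For 15207 of 15208 genes above 0 in at least 3 libraries, FPKM came out as whole multiples of what 1 read is worth, within 0.0001 of a read. These recovered reads, 65857553 to 82223615 per library, also gave the length behind each value. The gene lengths compared with it came from GENCODE 29.

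HPC was compared with DMSO by limma 3.58.1 (R 4.3.3; trend and robust options, two-sided) on log2(FPKM + 0.1), a scale that understates the fold change of low genes. This used 9150 genes reaching 1 FPKM in 5 or more libraries. P-values were adjusted over all tested genes by Benjamini-Hochberg. Added after seeing the data were limma voom on 13583 genes with at least 10 recovered reads in at least 5 libraries, values per merged exon length, and ratios of reads with all 7 members. Intervals are at 95%. Member ratios were tested by exact permutation over 252 assignments of libraries. Members and lists were chosen with earlier results of these data known.

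Beside the members, the genes named are up to 4 called members of each list (largest change first, separate groups, mean of 1 FPKM or more in either group), the 2 closest profiles of each tested member, and cell type markers. Any 2 libraries of a group differed by more than counting noise (chi-square per degree of freedom 13.2 to 32.1). The procedures were tested on simulated data. Python 3.11.15 with SciPy 1.17.1, NumPy 2.4.6, matplotlib 3.10.9 and pandas 2.3.3 was also used.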

Additional observations from a re-analysis of the deposited data

Results flagged for a closer look

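Of 86 groups of 5 libraries checked for a value far from the others, 5 had one, and chance alone marks about 1 group in 20. None of them was a JUN or FOS gene. HMOX1 had 43.3 FPKM in HPC library 3, against 40.7 in the next highest. HBEGF had 1.36 FPKM in DMSO library 4, against 1 in the next highest. Among the genes for protein turnover, GSK3A had 9.02 FPKM in DMSO library 3 and 11.8 in HPC library 4, the highest and the lowest of their groups, and CUL4A had 5.83 FPKM in DMSO library 5, the highest of its group.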

How the results depend on the processing

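The 6 tested members kept their direction and their call in all 22 alternatives each, with log2 fold changes from 2.61 to 4.58 for FOS, 2.80 to 3.05 for JUNB, 1.96 to 2.17 for JUN, 1.43 to 1.62 for JUND, 1.45 to 1.64 for FOSL1 and 0.30 to 0.49 for FOSL2. FOSB, at 2.09 with no filter, was at 3.14 per merged exon length and at 3.56 by voom on reads. The count tests planned as alternatives (edgeR and DESeq2 on recovered reads) were not run, since the deposited unit is FPKM, and voom was run in their place. Depth limits FOSB most, at 65 to 132 reads in DMSO.

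With a filter of 5 FPKM, 4240 genes were tested and 3805 called, 1969 higher and 1836 lower. There the bZIP partners had 4 higher, the JNK cascade 1 higher and 0 lower, the ERK and p38 cascades 3 higher and 3 lower, and the regulators of JUN and FOS transcription 4 higher. The JNK cascade had 5 lower with no filter and per merged exon length, 6 by voom with at least 10 reads, 3 higher and 5 lower with scaling to the non-mitochondrial sum, and 1 lower with quantile normalization. The MAP kinase phosphatases had 1 lower with no filter, per merged exon length and by that voom fit. Scaling to the non-mitochondrial sum and quantile normalization used the same 9150 genes as the main fit, so only the normalization differed there. With the other settings named here, the genes tested changed. The causes were not tested further.

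The JUNB to FOS ratio was 0.26 with a pseudocount of 1. The JUND to FOSL1 ratio was 0.10 with a pseudocount of 1 (adjusted p = 0.0556 by the exact permutation test), -0.15 with quantile normalization (adjusted p = 0.00794, exact permutation), and -0.05 to 0.01 with 1 library left out, turning sign without HPC library 2.

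Shares moved with the unit. In recovered reads, DMSO then HPC, JUN made 38.2% and 40.5%, JUNB 12.3% and 23.2% and JUND 49.5% and 36.3% of the JUN genes. FOSB made 1.36% and 5.93%, FOSL1 31.2% and 36.4% and FOSL2 64.7% and 33.7% of the FOS genes, with FOS at 24% in HPC. Per merged exon length, JUN made 24.5% and 26.2%, JUNB 29.2% in HPC, JUND 60.2% and 44.6%, FOSB 0.914% and 3.29%, FOSL1 62% and 59.4%, and FOSL2 34% and 14.5%. On deposited FPKM, FOSL1 made 50.9% and 54.6% and FOSL2 46% and 22%, so the direction of the FOSL1 share depends on the length used.

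The replicate block is not backed by the design. Deviations of same-numbered libraries correlated at -0.06 to 0.20, and 4 of 10 libraries correlated best with their own number. With the replicate block, 3892 genes were called higher and 4077 lower, and no member lost its call. As the groups are of equal size, the mean of paired differences equals the unpaired difference. The member ratios were therefore the same by arithmetic, which is no check on them (-0.84, 0.53, -2.04, 0.51 and 1.66 for JUN to JUNB, JUND, FOS, FOSL1 and FOSL2, 1.37, -1.21, 1.35 and 2.50 for JUNB to JUND, FOS, FOSL1 and FOSL2, -2.57 and 1.14 for JUND to FOS and FOSL2, 2.55 and 3.71 for FOS to FOSL1 and FOSL2, 1.16 for FOSL1 to FOSL2). In the paired test their adjusted p was 0.067, as 5 sign flips allow no p below 0.0625.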
